A study of Mus musculus with 6 samples.

Results

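The 10 genes described here belong to the circadian clock: the repressors *Per1*, *Per2*, *Per3*, *Cry1* and *Cry2*, the activator *Arntl* (BMAL1), the nuclear receptors *Nr1d1* and *Nr1d2* (REV-ERB alpha and beta), and the transcription factors *Dbp* and *Tef*. They were chosen by gene symbol, and all 10 were found among the 44788 symbols of the count table and had enough counts to be tested. In nearly every cell of the body, a dimer of BMAL1 with CLOCK or NPAS2 binds E-boxes and drives *Per* and *Cry* genes, whose proteins then block that dimer, so that the loop turns about once a day. REV-ERB proteins repress *Arntl* and ROR proteins activate it through a shared DNA element, while DBP, TEF and HLF activate, and NFIL3 represses, genes with D-boxes. Tendon is among the peripheral tissues with a working clock, and the RNA of *Arntl* in such tissues peaks at nearly the opposite time of day from that of *Nr1d1* and *Dbp*.

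Bulk RNA sequencing measures the RNA of all cells of a tissue together. Here it was applied to tail tendons of C57BL/6 mice, with 3 wild-type (WT) and 3 *Mkx*-/- libraries. *Mkx* encodes Mohawk, a homeobox transcription factor of tendon, and the exons deleted in the mutant line are not given in the sources used here. The labels give an age of 3-week-old for both genotypes and the text of the study gives another age. The time of day at which tendons were taken, the lighting schedule and whether a library pooled several mice are not given in the sources used here.

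The libraries held between 10835070 and 14160301 counts, which were scaled with TMM normalization in edgeR. Levels are given below as normalized CPM, the count of a gene relative to the TMM-scaled size of its library. *Mkx* itself had 1825, 1381 and 1685 counts in WT and 620, 589 and 491 counts in *Mkx*-/- libraries, lower in every mutant, with reads on the gene remaining. The tendon marker *Tnmd* averaged 1083 ± 148 CPM in WT against 1065 ± 207 CPM in mutant libraries (SD, n = 3 each). The sum over the list of 9 tendon markers, of which *Col1a2* was the most abundant, was lower in mutant libraries. That sum was 381995 to 524737 CPM in WT and 244946 to 339668 CPM in *Mkx*-/- libraries, without overlap. By gene, 2 of the 9 were lower and 1 higher without overlap, beside 13.6% and 14.6% of all tested genes. The median log2 fold change of the list was -0.42, with 7 of 9 below 0, and in edgeR *Mkx* fell, *Thbs4* rose and 7 did not pass the test. WT replicate 3 was male by its reads, with 301 counts of the Y-linked *Ddx3y* and 1 of *Xist*. The other 5 libraries were female, with 0 counts of *Ddx3y* and 1289 to 1866 of *Xist*. Leaving out WT replicate 3 thus compares female libraries only. No source states that replicates came from separate mice, so p-values measure the spread between these libraries.

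The control elements that the clock loops read were looked for in the promoters of the members. Whether the matches go with the variation between libraries described below was not tested. RefSeq windows of build GRCm38.p6, from 250 bases before to 50 bases after each annotated start, were found for 9 members (all but *Per2*). Motifs were searched on both strands: the E-box CACGTG, the E-prime box CACGTT, the D-box TTATGNAA, the REV-ERB/ROR element TAGGTCA and the cAMP response element TGACGTCA. The E-box and the E-prime box differ in their last letter only, and no match in the windows printed here overlapped another.
An E-box was found in 3 of the 9 members (*Per1*, *Cry1*, *Tef*), against 8.09% of the 27025 genes with a window, and an E-prime box in 3 (*Cry1*, *Cry2*, *Nr1d1*), against 5.44%. A D-box was found in 2 (*Per1*, *Per3*), against 3.99% of genes, the REV-ERB/ROR element in 1 (*Arntl*), against 2.97%, and the cAMP response element in 0, against 2.03%. The 6 windows below show where the 4 kinds of match lie in members of each role, in lower case with the matches in capitals. Positions count from 0 at the annotated start.
*Per1*, with an E-box from -166 to -161 and a D-box from -24 to -17 (chr11:69098699-69098998, plus strand): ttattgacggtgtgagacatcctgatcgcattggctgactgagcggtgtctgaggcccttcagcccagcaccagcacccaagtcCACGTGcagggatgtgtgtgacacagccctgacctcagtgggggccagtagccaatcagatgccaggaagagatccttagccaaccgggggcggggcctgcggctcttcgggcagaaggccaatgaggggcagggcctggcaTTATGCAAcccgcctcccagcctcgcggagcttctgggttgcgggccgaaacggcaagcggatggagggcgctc
*Per3*, with D-boxes from -205 to -198 and from -158 to -151 (chr4:151044616-151044915, minus strand): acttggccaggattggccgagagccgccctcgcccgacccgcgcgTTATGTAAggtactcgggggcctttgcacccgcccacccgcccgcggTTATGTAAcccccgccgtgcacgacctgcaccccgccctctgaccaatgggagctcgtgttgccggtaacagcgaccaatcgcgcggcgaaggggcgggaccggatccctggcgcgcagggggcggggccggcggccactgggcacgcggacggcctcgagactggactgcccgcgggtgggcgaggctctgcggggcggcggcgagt
*Cry1*, with an E-prime box on the reverse strand from -79 to -74 and an E-box from -60 to -55 (chr10:85185005-85185304, minus strand): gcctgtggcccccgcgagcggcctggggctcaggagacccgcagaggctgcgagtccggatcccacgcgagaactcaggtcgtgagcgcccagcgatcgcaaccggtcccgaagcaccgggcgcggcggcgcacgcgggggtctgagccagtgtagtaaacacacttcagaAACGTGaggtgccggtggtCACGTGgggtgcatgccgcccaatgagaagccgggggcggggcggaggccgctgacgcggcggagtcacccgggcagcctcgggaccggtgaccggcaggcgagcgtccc
*Nr1d1*, with an E-prime box on the reverse strand from -28 to -23 (chr11:98775328-98775627, minus strand): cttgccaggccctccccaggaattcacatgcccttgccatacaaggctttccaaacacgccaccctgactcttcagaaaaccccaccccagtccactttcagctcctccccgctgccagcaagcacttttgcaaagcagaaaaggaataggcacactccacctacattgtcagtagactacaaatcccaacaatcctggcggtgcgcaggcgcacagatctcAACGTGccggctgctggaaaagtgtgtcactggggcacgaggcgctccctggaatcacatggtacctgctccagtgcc
*Tef*, with an E-box from -127 to -122 (chr15:81802423-81802722, plus strand): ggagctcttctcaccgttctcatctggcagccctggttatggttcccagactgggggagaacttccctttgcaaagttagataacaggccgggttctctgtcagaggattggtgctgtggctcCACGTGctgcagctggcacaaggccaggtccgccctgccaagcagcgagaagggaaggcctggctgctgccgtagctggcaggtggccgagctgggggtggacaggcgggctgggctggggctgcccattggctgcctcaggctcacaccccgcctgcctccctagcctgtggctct
*Arntl*, with a REV-ERB/ROR element from 30 to 36 in the window of the second of its annotated starts (chr7:113207261-113207560, plus strand): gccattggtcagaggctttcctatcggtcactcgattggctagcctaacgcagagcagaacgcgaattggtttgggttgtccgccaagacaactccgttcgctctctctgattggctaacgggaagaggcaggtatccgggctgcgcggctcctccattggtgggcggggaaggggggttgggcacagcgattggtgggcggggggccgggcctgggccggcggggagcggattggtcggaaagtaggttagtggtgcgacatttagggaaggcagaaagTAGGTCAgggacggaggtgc

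The first question was whether the clock genes differed between *Mkx*-/- and WT tendons. By edgeR's quasi-likelihood test with Benjamini-Hochberg adjustment over 14550 genes, 0 of the 10 members passed an adjusted p of 0.05, where 5.44% of all tested genes did (with a change over 2-fold, 1.89% were higher and 1.33% lower). At an unadjusted p under 0.05 there were 2, *Tef* and *Per2*, against 22.6% of tested genes. With DESeq2 1 member, *Tef*, passed, and so did 9.45% of all tested genes (5.41% higher and 4.04% lower). With scaling by library size alone *Tef* passed too, beside 10.7% of all tested genes (9.33% higher and 1.35% lower). At either share, 1 call among 10 members is near the background. The log2 fold changes of *Mkx*-/- against WT lay between -0.26 and 0.42 with a median of 0.16, beside a median of -0.0037 over all tested genes. For all 10 members the 95% interval of the log2 fold change lay between -1 and 1, as for 10045 of all 14550 tested genes. A change of 2-fold, the size the study required of a changed gene, was thus outside the interval in both directions.

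**Figure D1:**
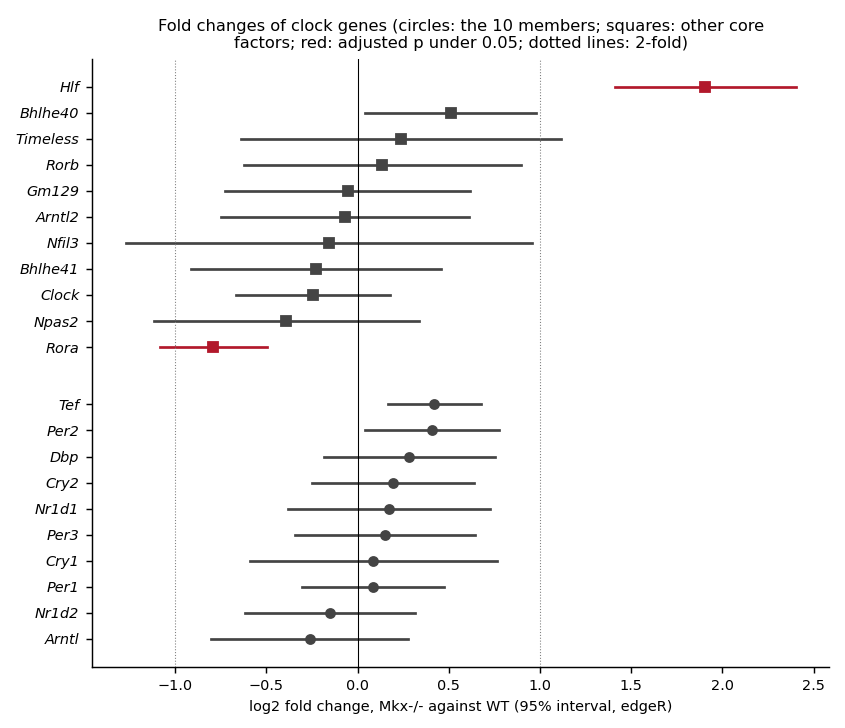
Log2 fold changes of *Mkx*-/- against WT with 95% intervals from edgeR, for the 10 members (circles) and 11 other core clock factors (squares). The intervals of all 10 members lie between -1 and 1, as for 10045 of 14550 tested genes. *Hlf* and *Rora*, in red, passed an adjusted p of 0.05.

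*Per1*, *Per2* and *Per3* encode the PERIOD proteins, which carry the CRY proteins to the BMAL1 dimer. *Per1* (chromosome 11, 68908719 to 68923462 in mm9) was the highest member per exon length, and its own level was 187, 205 and 160 CPM in WT and 227, 204 and 155 CPM in *Mkx*-/- libraries. The highest and the lowest library were both *Mkx*-/-, and the log2 fold change was 0.086 ± 0.17 (SE, adjusted p = 0.814 by edgeR).
*Per2* (chromosome 1, 93312561 to 93355907) was at 17.96, 16.2 and 16.2 CPM in WT and 25.7, 17.7 and 23.5 CPM in *Mkx*-/- libraries. *Mkx*-/- replicate 2 lay below WT replicate 1, so the groups overlapped, and the other pair of *Mkx*-/- libraries were above every WT library. The log2 fold change of 0.41 (standard error 0.16, 95% interval 0.039 to 0.78) did not pass the adjusted threshold in edgeR (adjusted p = 0.180).
*Per3* (chromosome 4, 150377761 to 150418774) was at 19.3, 12.4 and 11.4 CPM in WT and 14.6, 18.3 and 14.98 CPM in *Mkx*-/- libraries, all 3 of the latter within the WT range. Its log2 fold change was 0.15 ± 0.22 (SE, adjusted p = 0.733 by edgeR).

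*Cry1* and *Cry2* encode the cryptochromes, the main blockers of BMAL1 dimers. *Cry1* (chromosome 10, 84594447 to 84647799) was at 14.9, 8.15 and 7.05 CPM in WT and 10.8, 8.36 and 12.9 CPM in *Mkx*-/- libraries. WT replicate 1 stood at 2.11 times WT replicate 3, and the *Mkx*-/- libraries lay between them. The log2 fold change was 0.087 ± 0.30 (SE, adjusted p = 0.900 by edgeR), with an interval of -0.59 to 0.76.
*Cry2* (chromosome 2, 92243803 to 92274200) was at 88.3, 65.9 and 51.0 CPM in WT and 77.8, 85.0 and 72.2 CPM in *Mkx*-/- libraries, again within the WT range. The log2 fold change was 0.20 ± 0.19 (SE, adjusted p = 0.603 by edgeR).

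*Arntl* (chromosome 7, 120350979 to 120457636), which encodes the member of the activating dimer among the 10, was at 46.9, 31.4 and 24.5 CPM in WT and 29.95, 32.04 and 23.8 CPM in *Mkx*-/- libraries. WT replicate 1 was the highest of the 6, and the other 5 lay between 23.8 and 32.04 CPM. The log2 fold change, -0.26 ± 0.24 (SE, adjusted p = 0.560 by edgeR), was 0.033 without WT replicate 1.

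*Nr1d1* (chromosome 11, 98629246 to 98636647) and *Nr1d2* (chromosome 14, 19036568 to 19071641) encode the heme-binding repressors of *Arntl*. *Nr1d1* was at 74.4, 64.8 and 129 CPM in WT and 110, 94.2 and 97.6 CPM in *Mkx*-/- libraries, and *Nr1d2* at 26.2, 24.4 and 41.2 CPM in WT and 30.2, 27.1 and 25.6 CPM in *Mkx*-/- libraries. For both genes WT replicate 3 was the highest of all 6 libraries and WT replicate 2 the lowest. The log2 fold changes were 0.17 (standard error 0.24) and -0.15 (standard error 0.20), with edgeR adjusted p = 0.729 and 0.715. The sign of the *Nr1d2* value turned when counts were scaled by library size alone, to 0.11, and also to 0.11 without WT replicate 3. That of *Nr1d1* was -0.028 without WT replicate 2 and 0.52 without WT replicate 3 (edgeR adjusted p = 0.965 and 0.135).

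*Dbp* and *Tef* encode PAR bZIP factors, which carry the output of the clock to genes with D-boxes. *Dbp* (chromosome 7, 52960458 to 52965525) was at 9.22, 7.95 and 13.5 CPM in WT and 12.5, 11.9 and 13.0 CPM in *Mkx*-/- libraries. The *Mkx*-/- libraries lay between WT replicates 1 and 3, the log2 fold change was 0.28 ± 0.20 (SE, adjusted p = 0.464 by edgeR), and without WT replicate 3 it was 0.52 (adjusted p = 0.158).
*Tef* (chromosome 15, 81632851 to 81657291) was at 55.3, 62.2 and 58.7 CPM in WT and 82.5, 75.1 and 78.3 CPM in *Mkx*-/- libraries. With TMM scaling it was the one member whose groups did not overlap, where 28.2% of all tested genes did not. With scaling by library size alone, which moved the median log2 fold change of all tested genes to 0.25, *Per2* and *Dbp* did not overlap either. *Tef* was the member with the smallest p. Its log2 fold change of 0.42 (standard error 0.11, interval 0.17 to 0.68), or 1.34-fold, missed the threshold in edgeR (adjusted p = 0.0684) and passed it in DESeq2 (adjusted p = 0.0406) and with scaling by library size alone (0.0151). Over the alternatives the adjusted p of *Tef* reached 0.192, without *Mkx*-/- replicate 1. In bulk tissue, a different number of cells of a type and a different amount of RNA per cell cannot be told apart.

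**Figure D2:**
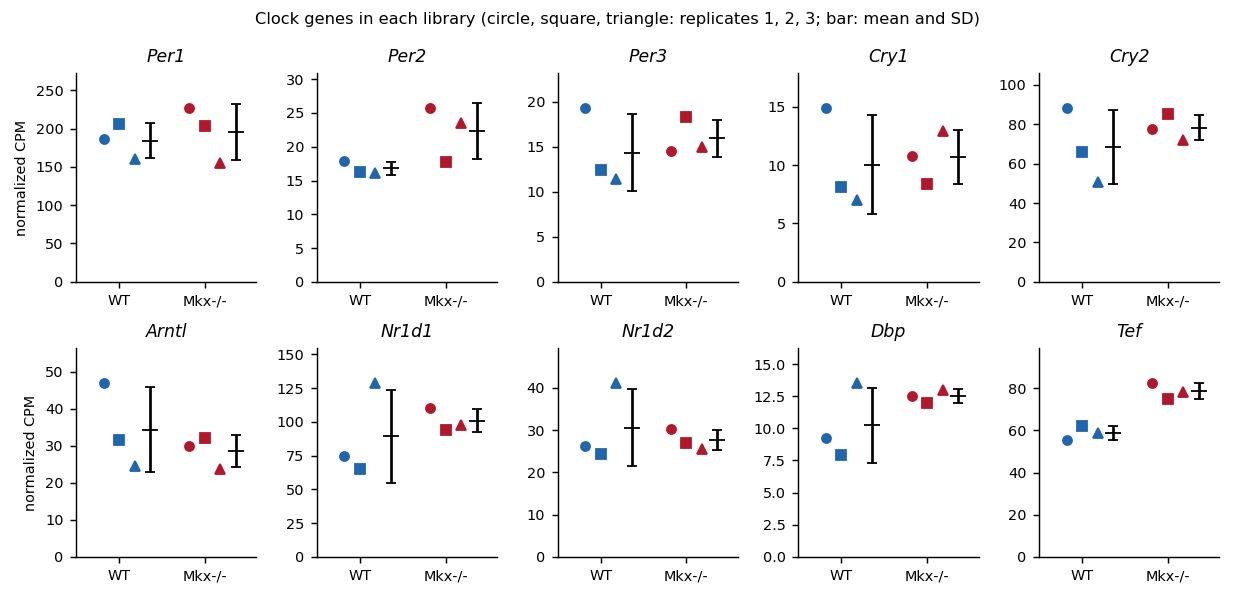
Normalized CPM of the 10 members in each library, with WT in blue, *Mkx*-/- in red and the mean and SD (n = 3) as black bars. WT libraries are spread widely for *Arntl*, *Cry1*, *Nr1d1* and *Dbp*, and for *Tef* the 3 *Mkx*-/- libraries, at 75.1 to 82.5 CPM, lie above the 3 WT libraries, at 55.3 to 62.2 CPM.

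Levels of different genes were compared per length, as normalized CPM per kilobase of annotated exon in mm9. In WT tendons *Per1* (32.7 ± 4.05) and *Nr1d1* (28.6 ± 11.1) were highest, followed by *Arntl* (11.7 ± 3.93), *Cry2* (10.8 ± 2.98), *Tef* (7.47 ± 0.440) and *Nr1d2* (6.11 ± 1.83 CPM per kilobase, SD, n = 3 each). *Dbp* (3.48 ± 0.995), *Cry1* (3.33 ± 1.41), *Per2* (2.87 ± 0.175) and *Per3* (1.49 ± 0.449 CPM per kilobase, SD, n = 3 each) were lowest. The neighbours *Per1* and *Nr1d1*, *Arntl* and *Cry2*, *Tef* and *Nr1d2*, *Dbp* and *Cry1*, and *Cry1* and *Per2* differed by less than the larger of their SDs.
Some counts could hold reads of an overlapping gene on the opposite strand, since how the counting treated strand is not given in the sources used here. The annotation lets *Sphk2* share 491 bases, or 16.7%, of the exons of *Dbp*, and *Thra* share 263 bases, or 8.42%, of those of *Nr1d1*. The shares were 4.67% for *Cry2* and 2.45% for *Tef*. The log2 fold changes of *Sphk2* and *Thra* were 0.023 and -0.016. *Sphk2* was at 13.7 to 17.2 CPM and *Thra* at 131 to 166 CPM. Without scaling to length, each was above the gene it overlaps in every library. The part of such reads in *Dbp* and *Nr1d1* was not tested.

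By median SD, the members varied more than all tested genes between WT libraries and less between *Mkx*-/- libraries. The SD of log2 CPM was larger in WT than in *Mkx*-/- libraries for 8 of the 10, where this held for 59.5% of all tested genes, and *Per1* and *Per2* were the exceptions. The median SD of the members was 0.40 in WT and 0.15 in *Mkx*-/- libraries, beside 0.23 and 0.19 over all tested genes. Counting error alone gives a chi-square per degree of freedom near 1 between libraries. Its median over all tested genes was 3.33 in WT and 2.55 in *Mkx*-/- libraries, and for a given spread it rises with counts. In WT the chi-square was 0.762 for *Per2*, 2.32 for *Tef* and between 9.72 (*Dbp*) and 156 (*Nr1d1*) for the other 8 members. In *Mkx*-/- libraries it was 0.303 for *Dbp*, 2.17 for *Tef*, 2.35 for *Nr1d2* and between 3.37 (*Per3*) and 81.9 (*Per1*) for the other 7. The spread of *Per2* in WT and of *Dbp* in *Mkx*-/- libraries was thus within counting error.
The members did not vary together in one direction. *Per2*, *Per3*, *Cry1*, *Cry2* and *Arntl* were highest in WT replicate 1 and lowest in WT replicate 3, an order held by 20.5% of all tested genes, and *Arntl* and *Cry1* spanned 1.92-fold and 2.11-fold. For *Per2* WT replicates 2 and 3 were nearly equal. *Nr1d1*, *Nr1d2* and *Dbp* were highest in WT replicate 3 and lowest in WT replicate 2, an order held by 12.1%, and spanned 1.99-fold, 1.68-fold and 1.70-fold. In *Mkx*-/- libraries neither group kept a shared order. *Arntl* and *Cry2* were highest in *Mkx*-/- replicate 2 and lowest in replicate 3, and *Cry1* the reverse. *Nr1d1* and *Nr1d2* were highest in *Mkx*-/- replicate 1, and *Dbp* in replicate 3. Outside the 10 members, *Npas2*, the alternative partner of BMAL1, and *Nfil3*, the D-box repressor, varied like *Arntl*. *Npas2* was at 45.3, 33.2 and 18.8 CPM and *Nfil3* at 54.6, 29.5 and 12.3 CPM in WT libraries. *Tef* and *Per2* varied least among the WT libraries, with the highest at 1.13 and 1.11 times the lowest.

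**Figure D3:**
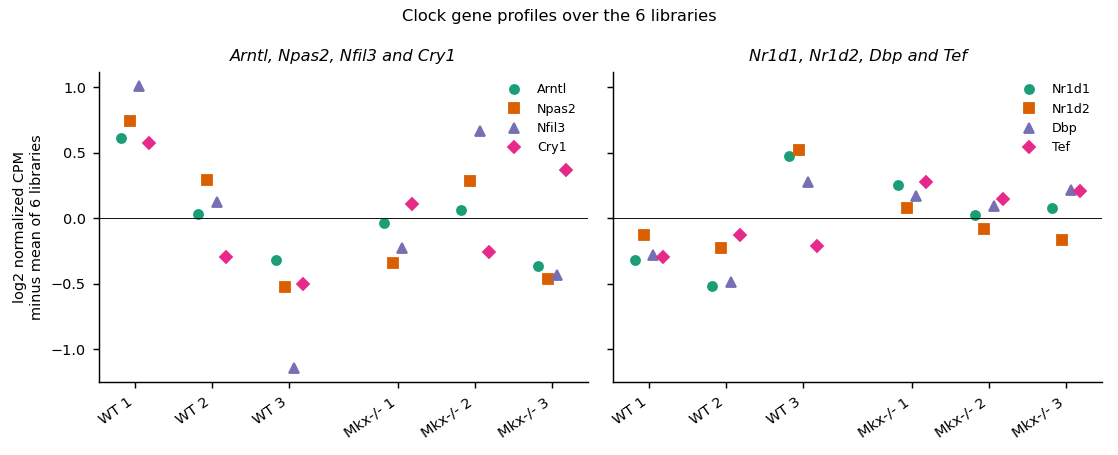
Log2 normalized CPM of 8 clock genes in each library, minus the gene's mean over the 6 libraries. On the left *Arntl*, *Npas2*, *Nfil3* and *Cry1* are highest in WT 1 and lowest in WT 3 among WT libraries, and on the right *Nr1d1*, *Nr1d2* and *Dbp* are highest in WT 3; the genes were grouped after their values were seen.

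Ratios of members within a library do not depend on how libraries are scaled. They were made from the same counts, so they are no separate evidence for the variation above. *Arntl*, *Nr1d1*, *Nr1d2* and *Dbp* were all lower in WT replicate 2 than in WT replicate 1. In WT replicate 3 *Arntl* was lower still, and *Nr1d1*, *Nr1d2* and *Dbp* were at their highest. The log2 ratio of *Dbp* to *Arntl* counts was -2.35, -1.98 and -0.86 in WT and -1.26, -1.42 and -0.87 in *Mkx*-/- libraries. All 3 *Mkx*-/- libraries lay within the WT range, between WT replicates 2 and 3. The log2 ratio of *Nr1d1* to *Arntl* was 0.66, 1.04 and 2.39 in WT and 1.88, 1.56 and 2.04 in *Mkx*-/- libraries, again between WT replicates 2 and 3. The *Nr1d1* to *Cry1* ratio spanned 1.87 log2 units among WT and 0.58 among *Mkx*-/- libraries. WT replicate 3, with the highest *Dbp* and *Nr1d1* ratios to *Arntl*, is also the male library, and the part of sex in these values was not tested. These ratios were chosen for description and carry no test.

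**Figure D4:**
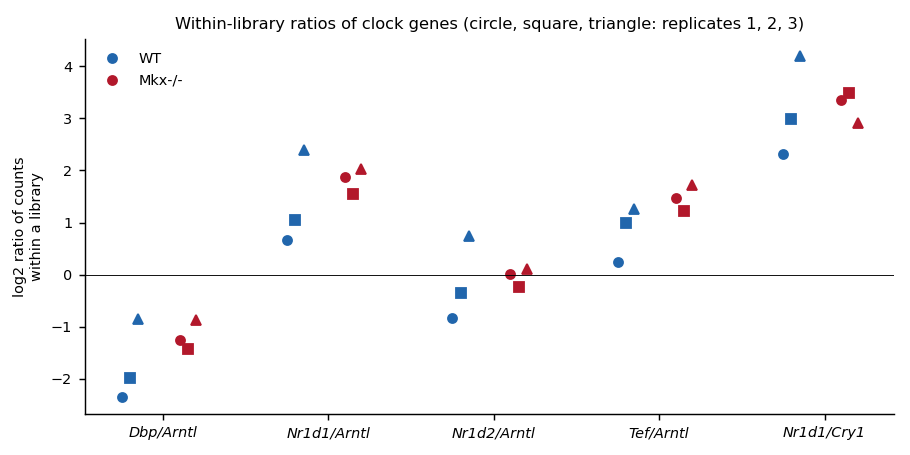
Log2 ratios of the counts of clock genes within each library, WT in blue and *Mkx*-/- in red. WT replicate 3 (triangle) has the highest and WT replicate 1 (circle) the lowest ratio among WT libraries for every pair shown, and the *Mkx*-/- libraries overlap the WT range in each.

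Of the other core clock factors, 11 of the 12 symbols listed were in the table (*Ciart* is listed there as *Gm129*) and tested. *Hlf* rose, *Rora* fell and 9 did not pass the test, with a median log2 fold change of -0.072. The background is 3.18% of tested genes higher and 2.26% lower at an adjusted p under 0.05. *Hlf*, the third PAR bZIP factor beside *Dbp* and *Tef*, had 24, 20 and 21 counts in WT and 78, 84 and 98 counts in *Mkx*-/- libraries. Every *Mkx*-/- library was above every WT library, at 6.94 ± 0.950 CPM against 1.84 ± 0.146 CPM (SD, n = 3 each). The log2 fold change of 1.91 ± 0.22 (SE, adjusted p = 0.00307 by edgeR) passed the threshold in all 14 alternatives. Its interval, 1.41 to 2.40, lies above those of *Dbp* (-0.19 to 0.75) and *Tef* (0.17 to 0.68), and the difference between the genes was not tested.
*Rora* encodes ROR alpha, an activator that shares its DNA element with REV-ERB proteins. *Rora* was at 50.7, 45.0 and 55.5 CPM in WT and 31.1, 29.6 and 26.7 CPM in *Mkx*-/- libraries, without overlap, with -0.79 as the log2 fold change (SE 0.13, adjusted p = 0.0143 by edgeR). The fall kept its direction in all 14 alternatives, but single libraries decided the call. For *Rora* the edgeR adjusted p was 0.0590 without WT replicate 3, and 0.0538 and 0.0573 without *Mkx*-/- replicates 2 and 3. *Arntl*, a target of ROR alpha, did not pass the test, as given above.
The other 9 were *Clock*, *Npas2*, *Arntl2*, *Rorb*, *Nfil3*, *Bhlhe40*, *Bhlhe41*, *Gm129* and *Timeless*, with log2 fold changes between -0.39 (*Npas2*) and 0.51 (*Bhlhe40*, edgeR adjusted p = 0.189). *Clock*, the partner of *Arntl*, was at 23.7, 15.5 and 25.2 CPM in WT and 17.5, 18.8 and 18.1 CPM in *Mkx*-/- libraries. Its groups overlapped, and the log2 fold change was -0.25 ± 0.18 (SE, adjusted p = 0.481 by edgeR).

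Markers of several other cell types moved with genotype, and for all tested genes the share without overlap was 14.6% higher and 13.6% lower. Summed over the list, skeletal muscle markers were at 99.3 to 372 CPM in WT and 535 to 2621 CPM in *Mkx*-/- libraries, and 10 of 14 were higher without overlap. Schwann cell markers were at 8124 to 10740 CPM in WT and 12605 to 23385 CPM in *Mkx*-/- libraries, with 6 of 8 higher without overlap, and endothelial markers at 81.9 to 106 and 159 to 193 CPM, with 7 of 11 higher without overlap. Macrophage and leukocyte markers were at 493 to 562 CPM in WT and 314 to 377 CPM in *Mkx*-/- libraries, with all 10 in the table lower without overlap. Keratinocyte markers were at 5.12 to 18.5 and 28.8 to 33.6 CPM, with 5 of 8 higher without overlap. The members of the remaining lists did not move together. Adipocyte markers were at 6.67 to 14.5 and 24.8 to 63.4 CPM, with 1 of 8 higher and 1 lower without overlap, and osteoblast markers at 2.91 to 5.37 and 6.59 to 7.29 CPM, with 2 of 7 higher and 1 lower. The sums of red cell markers, 41.4 to 180 and 23.7 to 48.1 CPM, overlapped. Only the red cell genes *Hbb-b1* and *Hbb-b2* were at 0 in every library. The part of these cell types in *Tef*, *Hlf* and *Rora* was not tested.

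The enzymes that set the stability of PER and CRY proteins and the cofactors of the clock held 1 call in all. Of 19 kinases, phosphatases and ubiquitin ligases, 1 fell, *Ppp1cc*, a catalytic subunit of protein phosphatase 1, at -0.64 on the log2 scale (adjusted p = 0.0476 by edgeR), and 0 rose, beside 2.26% and 3.18% of all tested genes, and the median was -0.069. The fall of *Ppp1cc* was past the threshold in 6 of 14 alternatives and in 0 of the 6 that leave out a library. The most abundant of these, *Ppp1ca* and *Csnk1d*, the casein kinase that phosphorylates PER, had log2 fold changes of 0.11 and 0.029. Of 13 cofactors, such as *Ncor1* and *Hdac3*, through which REV-ERB proteins repress, 0 passed in either direction in edgeR or in DESeq2. Among them 1 had an unadjusted p under 0.05, and the median was -0.20. The log2 fold change was below 0 for 12 of the 13 cofactors, beside 7342 of 14550 tested genes. Without overlap 5 cofactors were lower and 0 higher in *Mkx*-/- libraries, beside 13.6% and 14.6% of all tested genes. The most abundant were *Ddb1* and *Ncor1*, with -0.013 and -0.35 on the log2 scale (adjusted p = 0.967 and 0.225 by edgeR).
Of 21 tested genes known as outputs of the clock in other tissues, 1 rose and 1 fell, beside 3.18% and 2.26% of all tested genes, with a median of -0.079. *Por*, the reductase that serves P450 enzymes, fell from 79.5 ± 14.6 to 37.9 ± 4.63 CPM (mean ± SD, n = 3 each), or by -1.07 on the log2 scale (adjusted p = 0.0107 by edgeR), and passed in all 14 alternatives. *Rgs16*, a regulator of G protein signaling, had 2, 1 and 4 counts in WT and 14, 18 and 18 counts in *Mkx*-/- libraries, so its log2 fold change of 2.69 (interval 1.62 to 3.75, edgeR adjusted p = 0.0175) rests on few reads. Without WT replicate 2 and without *Mkx*-/- replicates 2 and 3 its adjusted p was 0.0775, 0.0586 and 0.0624. *Nampt*, the rate-limiting enzyme of NAD salvage, was at 70.4, 23.3 and 28.8 CPM in WT and 14.5, 17.99 and 18.2 CPM in *Mkx*-/- libraries and missed the threshold in edgeR (log2 fold change -1.27, adjusted p = 0.0927). It passed with DESeq2 (adjusted p = 0.00622) and with a filter of 1 count (0.00590), and without WT replicate 1 its log2 fold change was -0.63 (edgeR adjusted p = 0.0542). *Tsc22d3* and *Tenc1*, the most abundant of the list, did not pass the threshold, with -0.45 and 0.0088 on the log2 scale (adjusted p = 0.435 and 0.980 by edgeR).

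**Figure D5:**
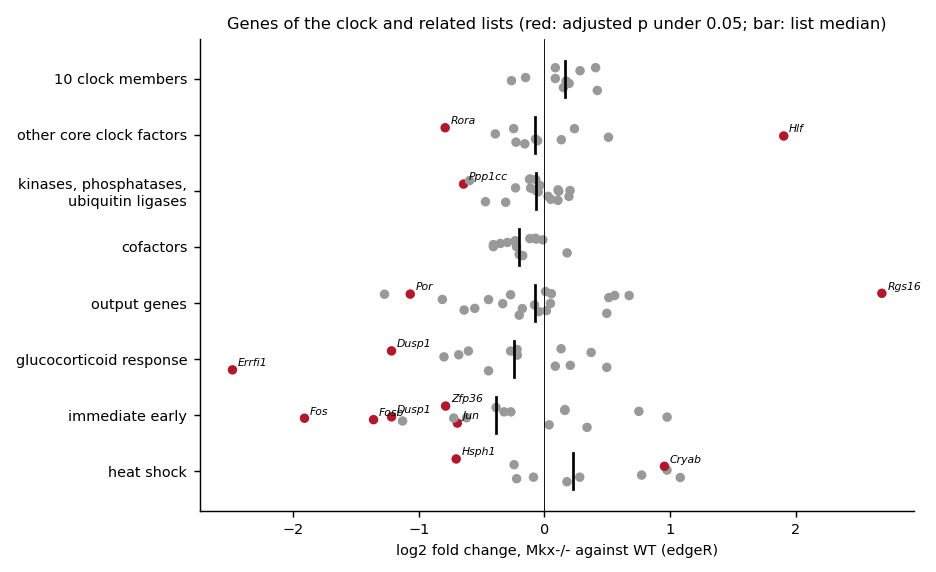
Log2 fold changes of *Mkx*-/- against WT for each tested gene of 8 lists, with list medians as black bars and genes at an adjusted p under 0.05 in red. The 10 clock members hold no red point, and their median is 0.16.

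Glucocorticoids, whose level in blood follows the clock, act directly on *Per1* and on many genes of their own. In both genotypes the library order of *Arntl* (WT replicate 1 above 2 above 3, and *Mkx*-/- replicate 2 above 1 above 3) was found for *Cry2*, *Npas2* and *Nfil3*, and for 6.63% of all tested genes. Of 14 glucocorticoid response genes, 9 had that order, among them *Fkbp5*, *Tsc22d3*, *Zbtb16* and *Pdk4*. *Fkbp5*, which restrains the glucocorticoid receptor, was at 317, 229 and 146 CPM in WT and 157, 161 and 79.3 CPM in *Mkx*-/- libraries, and *Tsc22d3* at 825, 544 and 398 CPM in WT and 467, 540 and 290 CPM. *Per1*, which is in this list too, had another order. The order was picked after the values were seen and carries no test. Between genotypes 2 of the 14 fell and 0 rose, beside 2.26% and 3.18% of all tested genes, with a median of -0.24. These were *Errfi1* and *Dusp1*, inhibitors of EGF receptor and MAP kinase signaling, at -2.49 and -1.22 on the log2 scale (adjusted p = 0.0220 and 0.0248 by edgeR). Both calls were lost without *Mkx*-/- replicate 1 and without *Mkx*-/- replicate 3, and 1 was lost without WT replicate 2, WT replicate 3 or *Mkx*-/- replicate 2.

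The genes most like *Dbp* and *Arntl* over the 6 libraries were sought among 10294 genes averaging 5 CPM or more, by Pearson's correlation of log2 CPM. With 6 points shared by all genes of a library, such values are a description and carry no p. For *Arntl* the highest were *Oxa1l*, *Snx33*, *Zxdc*, *Zer1* and *Angel1* (Pearson's r between 0.993 and 0.997, Spearman's rho between 0.943 and 1), and the lowest were *Tspan3*, *Ost4*, *1810026J23Rik*, *Slc30a9* and *Agpat6* (r between -0.995 and -0.989). For *Dbp* the highest were *Phf2*, *Ftl2*, *Tank*, *Psmd14* and *Mtmr2* (r between 0.984 and 0.990), and the lowest *Fbxl17*, *Zfp574*, *Adam33*, *0610009O20Rik* and *AW554918* (r between -0.983 and -0.971). No gene of the clock lists was among them. In edgeR their adjusted p between genotypes lay between 0.304 and 0.866. They were picked by correlation with *Dbp* and *Arntl*, which did not pass the test, so this is no separate result.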

How the data were processed

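Tail tendon RNA of WT and *Mkx*-/- mice, in 3 libraries per genotype, was sequenced on the Ion Proton system. After trimming adaptors and discarding poor reads, the authors aligned the rest to mm9 with MapSplice v2.1.6, and they deposited raw counts per gene symbol. The counting program and its use of strand are not given in the sources used here. From these counts, edgeR 4.0.16 in R 4.3.3 was run with TMM, filterByExpr (14550 genes), a quasi-likelihood fit on genotype and Benjamini-Hochberg adjustment over all tested genes. Standard errors were taken from the F statistic. DESeq2 1.42.0 was the alternative test. Both tests were checked on simulated counts. Positions and exon lengths are those of GENCODE vM1 on mm9, and promoters those of RefSeq.

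The members and lists were chosen with earlier results of these data known. The text names all 10 members, of each other clock list up to 5 genes past the threshold and the 2 most abundant, and the 5 genes most and least like *Dbp* and *Arntl*. *Npas2*, *Nfil3*, *Clock*, *Nampt*, *Fkbp5* and others were named after their values were seen. Alternatives were RLE, upper-quartile and library-size scaling, DESeq2, a robust fit, 2 filters, a replicate block and each library left out. Some listed genes are not reported here. Replicate numbers did not pair libraries. Counts of replicate libraries differed beyond sampling noise (chi-square 7.98 to 39.8 per degree of freedom), so each was counted once.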

Additional observations from a re-analysis of the deposited data

How the results depend on the processing

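Of 140 values, the 10 members under 14 alternatives each, 128 kept their direction and side of the threshold, 10 changed sign and 2 passed it. The latter were both *Tef*, so that DESeq2 and scaling by library size only each gave 1 member higher where edgeR gave 0. Scaling by library size moved the median of all genes from -0.0037 to 0.25 and *Nr1d2* to 0.11, which is below that shift. The other 9 sign changes came from leaving out a library, with log2 fold changes of -0.47 to 0.033 for *Arntl*, -0.13 to 0.49 for *Cry1*, -0.028 to 0.52 for *Nr1d1*, -0.30 to 0.11 for *Nr1d2*, -0.055 to 0.23 for *Per1* and -0.0081 to 0.43 for *Per3*. Over all genes, 463 were higher and 329 lower at an adjusted p under 0.05 in edgeR, 787 and 588 in DESeq2, 970 and 594 with a filter of 1 count, 1358 and 197 with scaling by library size, and 117 to 539 and 127 to 439 with a library left out. With the replicate number as a block these were 264 and 170. Same-numbered libraries had correlated deviations of 0.026, -0.21 and 0.30, so the numbers do not pair them. With the block, 0 members passed, and *Rora* had an adjusted p of 0.0505. With library-size scaling *Rora* had 0.0539. The cause of these changes was not tested. With 3 libraries a genotype, intervals of the members are up to 1.36 log2 units wide.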

Other observations

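Immediate early genes are switched on within minutes by outside signals and share response elements with *Per1*. Of 17 tested, 5 fell and 0 rose in *Mkx*-/- tendons, beside 2.26% and 3.18% of all tested genes, with a median log2 fold change of -0.39 and 6 of 17 above 0. With DESeq2 7 fell and 2 rose, beside 4.04% and 5.41% of all tested genes, and with scaling by library size alone 3 fell and 3 rose, beside 1.35% and 9.33%. *Fosb*, a part of AP-1, fell from 116 ± 16.3 to 45.0 ± 4.86 CPM (mean ± SD, n = 3 each), or by -1.36 on the log2 scale (adjusted p = 0.00250 by edgeR). *Fos*, *Dusp1*, *Jun* and *Zfp36* fell too, at -1.91, -1.22, -0.69 and -0.79 on the log2 scale (adjusted p = 0.0404, 0.0248, 0.0252 and 0.0454 by edgeR). *Dusp1* is in the glucocorticoid response list too, and its call is the one counted there. With 1 library left out, 1 to 5 of the 17 fell, and 1 without WT replicate 3, *Mkx*-/- replicate 1 or *Mkx*-/- replicate 2. Without overlap 8 of the 17 were lower and 2 higher in *Mkx*-/- libraries, beside 13.6% and 14.6% of all tested genes. The 2 higher genes, *Egr2* and *Nr4a1*, missed the threshold, at 0.98 and 0.75 on the log2 scale (adjusted p = 0.0823 and 0.0959 by edgeR).

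Of 10 heat shock genes, 1 rose and 1 fell in edgeR, beside 3.18% and 2.26% of all tested genes. In DESeq2 3 rose and 1 fell, beside 5.41% and 4.04%. Their median log2 fold change was 0.23 in edgeR. *Cryab*, a small heat shock protein that is abundant in muscle, rose from 161 ± 23.8 to 313 ± 39.9 CPM (mean ± SD, n = 3 each), or by 0.96 on the log2 scale (adjusted p = 0.0157 by edgeR). *Hsph1* fell from 43.3 ± 5.13 to 26.6 ± 1.36 CPM (mean ± SD, n = 3 each), or by -0.70 on the log2 scale (adjusted p = 0.0217 by edgeR). Both calls were lost without WT replicate 3, *Mkx*-/- replicate 2 or *Mkx*-/- replicate 3. Marker levels of muscle, which move with genotype, are given in the report, and their part in *Cryab* was not tested. The cold-inducible *Cirbp* and *Rbm3* were at -0.045 and 0.048 on the log2 scale (adjusted p = 0.928 and 0.862 by edgeR).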
